A study of Mus musculus with 6 samples.

Results

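The proteasome genes described here encode the subunits of the proteasome, the barrel-shaped protease complex that destroys ubiquitin-tagged proteins, together with its assembly chaperones, activators and inhibitor. They are the mouse genes whose symbols begin with Psma, Psmb, Psmc, Psmd, Psme, Psmf or Psmg followed by a digit, leaving out Psmb8, Psmb9 and Psmb10, the catalytic subunits of the immunoproteasome. Probes named 47 such genes, and 44 of these passed the filter on dim probes, which asks that a group's 2 arrays both exceed background clearly, among 10947 genes tested. All 44 were above background on each of the 4 arrays used. The symbol rule also took in Psme3ip1, whose product binds the activator subunit Psme3 and is no subunit itself.

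The cells were macrophages grown from bone marrow of C57BL/6 mice aged 6 to 8 weeks and labelled as M2-polarized, a state of alternative activation. For 6 h they were kept in complete DMEM, a culture medium, either without an addition (medium) or with WGP, whole glucan particles, a particulate yeast beta-glucan preparation (WGP). The 2 groups share strain, age range, cell type and medium, and differ in WGP alone as far as the labels go. The agent used for polarization, the WGP dose, the sex of the mice, and whether replicates came from separate animals or cultures are not given in the sources used here, so p-values here reflect how far these samples differ, possibly for technical reasons only.

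As background, the 20S core particle is a stack of rings. The outer alpha rings gate the entry and the inner beta rings hold the proteolytic sites, which belong to Psmb5 (chymotrypsin-like), Psmb6 (caspase-like) and Psmb7 (trypsin-like). The 19S regulatory particle caps the core. Its ring of ATPases, Psmc1 to Psmc6, unfolds substrates and threads them into the core, and its non-ATPase subunits bind ubiquitin chains, remove them and hold the cap together. In macrophages the proteasome also supplies peptides for antigen presentation and degrades the inhibitor of NF-kappaB during inflammatory activation, and interferon-gamma replaces Psmb6, Psmb7 and Psmb5 by Psmb9, Psmb10 and Psmb8. When proteasome activity falls short, the transcription factor Nfe2l1 raises subunit genes together, and its relative Nfe2l2, held down by Keap1, can raise many of them under oxidative stress.

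Each group had 3 deposited files but 2 independent arrays. Replicate 3 of medium lay within 0.695% of the mean of replicates 1 and 2 at all 44397 spots and was left out, and replicate 3 of WGP was replicate 1 multiplied by 1.3, within 0.498%, and was averaged with it. Between 45.0% and 50.6% of probes were well above background per array, and precision is limited by having so few arrays. The 7 spike-in controls changed by -0.17 to 0.19 on the log2 scale. Of the macrophage markers, 7 of 8 were tested and well detected. Their summed linear signals were 1434 to 1483 in medium and 1657 to 1917 with WGP, where 75th-percentile signal is 1. The brightest, Csf1r, had mean log2 levels of 10.0 in medium and 10.5 with WGP (0.46 ± 0.135 SE, limma adjusted p = 0.0586). It was not called, nor were Adgre1 (-0.04) and Itgam (-0.37). Cd14 rose, Lyz2, Mertk and Fcgr1 fell, and the list's median change was -0.37. The alternative activation markers Arg1 and Retnla were not well above background, Mrc1 and Clec10a fell with WGP, and the summed signal of that list was 77.5 to 99.2 in medium and 64.1 to 64.4 with WGP. Of 22 markers of other cells with a named probe, 12 were tested. Elane (levels of 3.88 to 4.04), Cd3e (3.54 to 4.12) and S100a9 (1.04 to 2.62) were above background on all 4 arrays and over the 75th percentile. Cd3g, Ms4a1, Ncr1, Flt3, Xcr1, Pdgfra, Alas2 and Mpo were not well above background, while the dendritic cell list rose from sums of 80.2 to 121 in medium to 202 to 214 with WGP through Siglech (1.08 ± 0.225 SE, limma adjusted p = 0.0255). The neutrophil list summed to 19 to 23.6 on the 4 arrays, the T, B and NK cell list to 14.3 to 15.2 and 11.9 to 17.6, where Cd79a fell, the fibroblast list to 2.51 to 3.16 and 2.73 to 2.89, where Col3a1 fell, and the erythroid list to 0.355 to 0.383 and 0.224 to 0.236, where Hba-a1 fell. In bulk RNA, fewer cells of a type and less RNA per cell cannot be told apart, and the part of cell makeup in the changes below was not tested.

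Levels are log2 of the processed spot signal minus the array's 75th percentile, and are not comparable between genes because probes differ in brightness. A change is the WGP mean minus the medium mean on that scale, with its standard error (SE) from limma, n = 2 arrays per group, and a gene was called at a Benjamini-Hochberg adjusted p under 0.05 over all 10947 genes. With WGP, 32 of the 44 proteasome genes rose and 0 fell, where the background was 23.2% of all genes called higher and 17.4% called lower. The 12 others had changes of -0.17 to 0.39. With 2 arrays per group, a gene that was not called is not shown to be unchanged. Of the 44 genes, 37 had both WGP arrays above both medium arrays, against a background of 40.7%, and 1, Psmg4, had both below, against 34.4%. Groups that did not overlap, in either direction, were thus common among all genes. The median change of the 44 was 0.53 (range -0.17 to 2.00), beside 0.028 over all genes tested, and 40 of 44 changes were above 0, against 51.7% of all genes. At least 1.5-fold rises were called for 20 members, against a background of 16.8%, and at least 2-fold rises for 7, against 8.05%: Psma3, Psmb5, Psmb6, Psmc5, Psmd1, Psmd11 and Psmd10. Of the 32 called rises, 12 were under 1.5-fold.

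**Figure D1:**
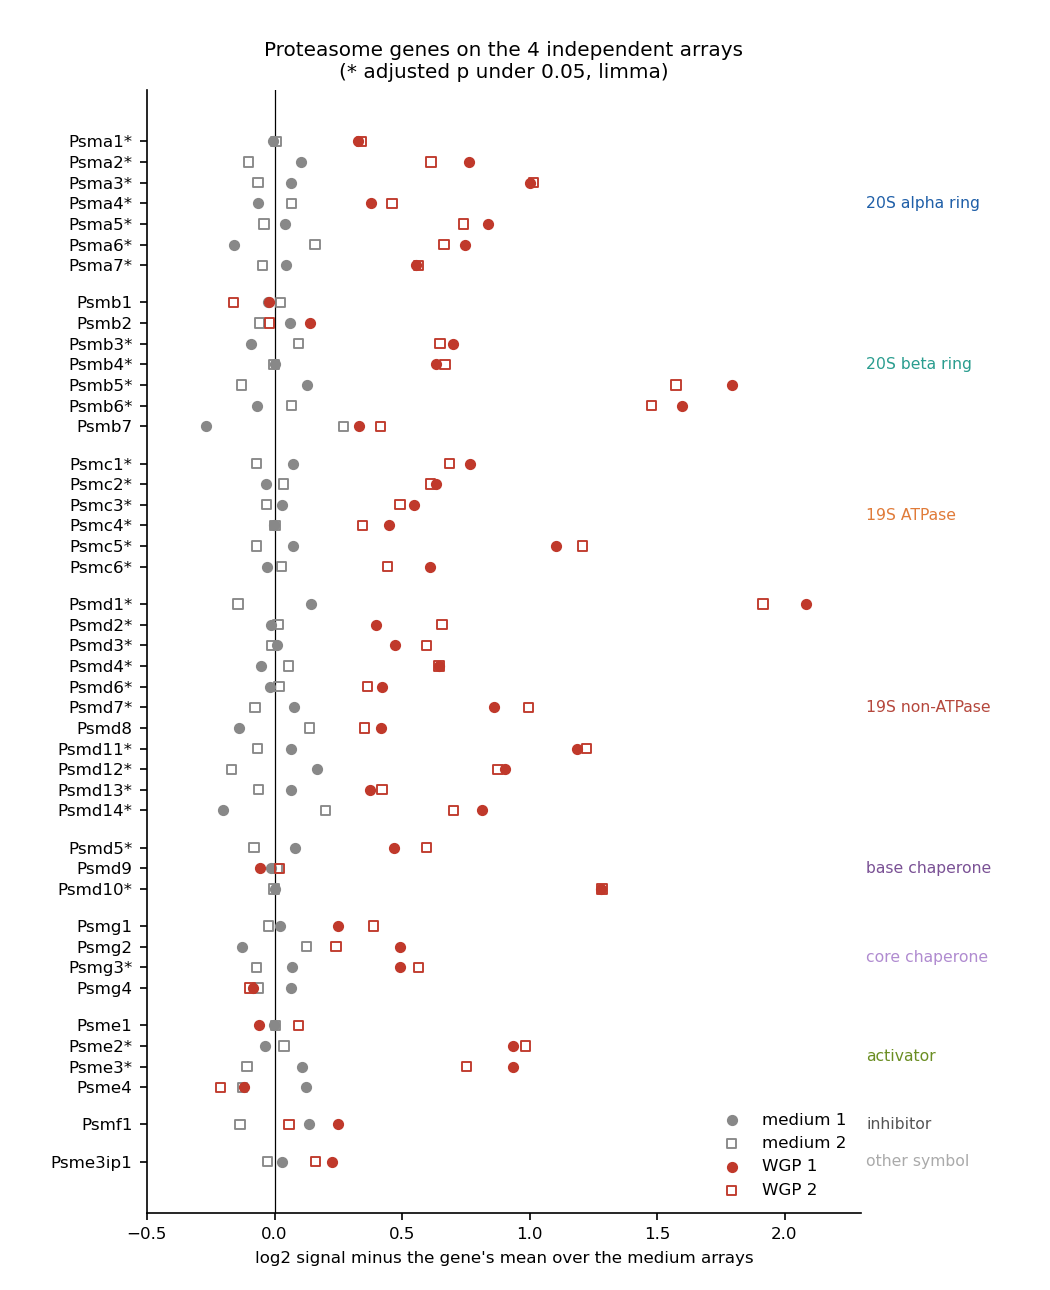
Log2 signal of the 44 proteasome genes on each array, minus that gene's mean over the medium arrays (x axis), with genes grouped by role (y axis). Grey symbols are medium and red symbols WGP, circles replicate 1 and squares replicate 2, and an asterisk marks a limma adjusted p under 0.05; the WGP points of Psmd1, Psmb5 and Psmb6 lie farthest to the right, and 37 genes have both WGP points above both medium points.

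The arrays came on 2 slides, each a scan of its own with 1 medium and 1 WGP array, per the file headers. Within the slide of replicate 1 the members' median difference was 0.61 and 40 were above 0; within the slide of replicate 2 it was 0.57 and 41 were above 0. The 2 within-slide differences correlated at 0.90 across the 44 members and at 0.85 across all genes tested, a description across genes, which are not replicates. With the slide as a replicate block, 26 members were called higher, against a background of 20.7%, and the 6 calls lost were Psma1, Psma4, Psmc4, Psmd6, Psmd13 and Psmd5. Leaving out 1 array left 20 members called higher without medium replicate 1 (18.0% of all genes in that fit), 20 without medium replicate 2 (15.0%), 9 without WGP replicate 1 (10.9%) and 11 without WGP replicate 2 (11.1%); the lone array is then assumed to vary like the other group. The 9 kept in all of these were Psma3, Psmb5, Psmb6, Psmc5, Psmd1, Psmd7, Psmd11, Psmd10 and Psme2. All 32 changes stayed above 0 in every setting tried, including each way of scaling the arrays.

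Brighter genes tended to rise in these arrays. With the genes tested split into 4 equal bins by mean level, the bins had median changes of -0.16, -0.04, 0.08 and 0.19 from dimmest to brightest, with 13.8%, 18.3%, 27.6% and 33.1% called higher. The proteasome genes numbered 1, 10, 14 and 19 in these bins, and 1, 3, 11 and 17 of them were called higher. Their medians were 0.17, 0.47 and 0.68 in the 3 brighter bins. The part of this trend in the members' rise was not tested.

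The 3 largest changes were those of Psmd1, Psmb5 and Psmb6. Psmd1 encodes a large scaffold subunit of the 19S base. Its levels were 3.69 and 3.41 in medium and 5.63 and 5.47 with WGP, a change of 2.00 ± 0.146 SE (limma adjusted p = 0.00292). The groups lay far apart, and the 2 slides gave 1.94 and 2.06. Since these 3 stand at the head of the set, the 250 bases upstream of their transcription starts are shown from the RefSeq promoter table on GRCm38.p6, 5′ to 3′ on the gene's strand. The letters were searched over the whole table entry, 250 bases before to 50 after the start. Capitals mark a match to TGACNNNGC, the core letters of the antioxidant response element bound by Nfe2l2 and small Maf proteins, on either strand; Psmd1 holds no match.
Psmd1, chr1:86064369-86064618, plus strand: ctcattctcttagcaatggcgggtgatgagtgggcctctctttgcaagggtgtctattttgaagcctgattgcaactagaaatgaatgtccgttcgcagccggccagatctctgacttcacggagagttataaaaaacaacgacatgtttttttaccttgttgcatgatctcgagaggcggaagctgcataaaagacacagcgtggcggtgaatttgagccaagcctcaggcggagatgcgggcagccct
Psmb5, chr14:54617996-54618245, minus strand: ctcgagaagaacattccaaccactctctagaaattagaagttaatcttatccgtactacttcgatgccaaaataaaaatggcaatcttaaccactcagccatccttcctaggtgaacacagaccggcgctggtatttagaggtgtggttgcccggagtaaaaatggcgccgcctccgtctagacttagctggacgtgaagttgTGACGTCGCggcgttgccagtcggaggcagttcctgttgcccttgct
Psmb6, chr11:70525107-70525356, plus strand: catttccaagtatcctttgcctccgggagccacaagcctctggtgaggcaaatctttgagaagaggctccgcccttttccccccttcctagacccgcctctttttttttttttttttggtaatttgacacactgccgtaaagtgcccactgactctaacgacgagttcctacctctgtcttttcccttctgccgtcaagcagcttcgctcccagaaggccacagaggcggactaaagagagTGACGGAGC

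The match of Psmb5 began 47 bases before the start and that of Psmb6 9 bases before it. Matches were also found upstream of Psmd12 and Psmc6, which rose, and of Psmd9, which was not called. In Psme4, also not called, the match crosses the start, beginning 7 bases before it with its last 2 bases past it. For contrast, these are shown as the match with its flank.
Psmd12, chr11:107479278-107479309, plus strand: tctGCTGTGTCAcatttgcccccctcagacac
Psmc6, chr14:45329577-45329625, plus strand: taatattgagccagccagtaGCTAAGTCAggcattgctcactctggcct
Psmd9, chr5:123228139-123228187, plus strand: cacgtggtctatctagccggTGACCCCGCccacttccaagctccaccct
Psme4, chr11:30771748-30771776, plus strand: aacctcccggcgctgcggctGCAGCGTCA

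In all, 37 of the 44 members were in the promoter table and 6 of them (16.2%) held the letters, beside 3781 of 27025 genes (14%). Among members called higher the count was 4 of 29, and among those not called 2 of 8. The stricter letters TGACTCAGC, also searched on both strands, stood in 0 of the 37 members and in 0.503% of all genes, and every match to them is also a match to the shorter pattern. A match is a run of letters and is not a binding site, and its absence from this window says nothing about the factor.

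All 7 alpha ring genes rose, by 0.33 to 1.01 with a median of 0.69, beside 23.2% of all genes called higher. In all 7 both WGP arrays were above both medium arrays, beside 40.7% of all genes. The alpha subunits form the gated outer ring on which the core is assembled and to which the caps dock. Psma3 had levels of 4.18 and 4.05 in medium and 5.12 and 5.13 with WGP, a change of 1.01 ± 0.10 SE or 2.01-fold (limma adjusted p = 0.00511). Psma5 went from 4.10 and 4.02 to 4.89 and 4.80, a change of 0.79 ± 0.10 SE (adjusted p = 0.00844). Both genes had groups that did not overlap and replicates that lay close together. Psma6 had 1.64 and 1.96 in medium and 2.55 and 2.47 with WGP (0.70 ± 0.145 SE, adjusted p = 0.0251). Psma2 had 4.36 and 4.15 in medium and 5.02 and 4.87 with WGP (0.69 ± 0.127 SE, adjusted p = 0.0191). The medium arrays of these genes differed more from each other, and the groups again did not overlap. The smallest rise was that of Psma1, from 2.03 and 2.04 to 2.37 and 2.38 (0.33 ± 0.091 SE, adjusted p = 0.0492), and Psma4 (0.42) and Psma7 (0.56) lay between. The calls of Psma1 and Psma4 were lost with normexp background correction, quantile normalization or centring on the genes tested, which left 5 of the 7. Leaving out medium replicate 1, medium replicate 2, WGP replicate 1 or WGP replicate 2 left 4, 3, 1 and 2 of the 7 called, and Psma3 was called in each; the highest adjusted p of the other 6 was 0.0503 to 0.207. Psma8, the alpha subunit of the spermatogenic proteasome, was not well above background.

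The beta ring was uneven. Of 7 genes 4 rose, beside 23.2% of all genes called higher, with a median change of 0.65. Both WGP arrays were above both medium arrays in 5, beside 40.7% of all genes. Of the catalytic subunits, Psmb5 had levels of 6.51 and 6.25 in medium and 8.17 and 7.95 with WGP, a rise of 1.68 ± 0.148 SE or 3.21-fold (limma adjusted p = 0.00394). Psmb6 had 7.16 and 7.30 in medium and 8.83 and 8.71 with WGP, a rise of 1.54 ± 0.110 SE or 2.90-fold (adjusted p = 0.00279). The groups of both genes were separated by far more than their replicates differed, and both calls held without any single array. Psmb7, the remaining catalytic subunit, had 1.33 and 1.87 in medium and 1.93 and 2.01 with WGP, 0.37 ± 0.210 SE (95% interval -0.20 to 0.94, adjusted p = 0.221). The groups of Psmb7 did not overlap but its medium arrays stood apart, so that the slides gave 0.60 and 0.14, and without medium replicate 2 it was called (adjusted p = 0.0458). Psmb11, which takes the place of Psmb5 in the thymus, was not well above background.

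The remaining beta subunits have no proteolytic site of their own and shape the ring. Psmb3 rose from 4.63 and 4.82 to 5.43 and 5.38 (0.68 ± 0.113 SE, limma adjusted p = 0.0154), and Psmb4 from 5.06 and 5.06 to 5.70 and 5.73 (0.65 ± 0.092 SE, adjusted p = 0.0104). Both had groups well apart, and both calls were lost without WGP replicate 1 or 2 (highest adjusted p 0.0768 for Psmb3 and 0.0639 for Psmb4). Psmb1 had 1.86 and 1.91 in medium and 1.86 and 1.72 with WGP (-0.09 ± 0.104 SE, 95% interval -0.37 to 0.19, adjusted p = 0.526). Psmb2 changed by 0.06 ± 0.114 SE (95% interval -0.25 to 0.37, adjusted p = 0.704). In both genes the groups overlapped, and the upper ends of their intervals lay below the changes of Psmb3 to Psmb6.

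Because 2 genes on the same array share its scaling, differences within an array were also taken. The mean of Psmb5, Psmb6 and Psmb7 minus that of their immunoproteasome counterparts was 0.89 and 1.11 on the medium arrays and 2.20 and 1.98 on the WGP arrays, a shift of 1.09 (1.30 and 0.87 within the slides). The groups did not overlap, but the pairs did not move alike: Psmb5 minus Psmb8 shifted by 1.91 and Psmb6 minus Psmb9 by 1.84, while Psmb7 minus Psmb10 shifted by -0.49. Psmb10 rose from 6.15 and 6.09 to 6.93 and 7.05 (0.87 ± 0.10 SE, limma adjusted p = 0.00696), whereas Psmb8 (-0.23 ± 0.113 SE, adjusted p = 0.179) and Psmb9 (-0.30 ± 0.10 SE, adjusted p = 0.0794) were not called. With normexp background correction both Psmb8 and Psmb9 were called lower (Psmb8 adjusted p = 0.0195 and Psmb9 0.0260 with the 75th percentile), and Psmb9 also with quantile normalization (0.0226).

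All 6 ATPase genes of the 19S base rose, by 0.40 to 1.16 with a median of 0.57, beside 23.2% of all genes called higher. All 6 had both WGP arrays above both medium arrays, beside 40.7% of all genes. The ATPase subunits form the ring that unfolds substrates. Psmc5 rose most, from 1.79 and 1.65 to 2.82 and 2.93, a change of 1.16 ± 0.110 SE or 2.23-fold (limma adjusted p = 0.00456). Its slides gave 1.03 and 1.28, and its call held without any single array. Psmc1 rose from 6.08 and 5.94 to 6.77 and 6.69 (0.73 ± 0.107 SE, adjusted p = 0.0115), and its second probe gave 0.62. Psmc2 rose from 4.92 and 4.99 to 5.59 and 5.57 (0.62 ± 0.094 SE, adjusted p = 0.0122), and its second probe gave 0.81. The change of Psmc4 was the smallest, from 1.82 and 1.82 to 2.27 and 2.17 (0.40 ± 0.098 SE, adjusted p = 0.0386). The call of Psmc4 was lost with normexp background correction, quantile normalization or centring on the genes tested, which left 5 of the 6. Psmc6 (0.53) and Psmc3 (0.52) lay between, and the second probe of Psmc3 gave 0.09 with overlapping groups. Without medium replicate 1, medium replicate 2, WGP replicate 1 or WGP replicate 2 in turn, 3, 3, 1 and 1 of the 6 calls were kept, with a highest adjusted p of 0.0630 to 0.192 for the 5 genes other than Psmc5.

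Of the 11 non-ATPase genes of the 19S particle 10 rose, beside 23.2% of all genes called higher, with a median change of 0.64 over the 11. All 11 had both WGP arrays above both medium arrays, beside 40.7% of all genes. After Psmd1, Psmd11 rose most; its product clamps the lid to the base and the core. Its levels were 0.79 and 0.65 in medium and 1.91 and 1.94 with WGP, 1.21 ± 0.103 SE or 2.31-fold (limma adjusted p = 0.00372). Psmd7, the partner of the deubiquitinase Psmd14, went from 1.41 and 1.26 to 2.19 and 2.33 (0.93 ± 0.115 SE, adjusted p = 0.00787). The calls of Psmd1, Psmd11 and Psmd7 held without any single array, and their groups were well separated. Psmd14, which cuts ubiquitin chains off the substrate, had 0.03 and 0.43 in medium and 1.04 and 0.93 with WGP (0.76 ± 0.170 SE, adjusted p = 0.0308). Its medium arrays stood apart, and the slides gave 1.02 and 0.50. Psmd12, a lid subunit, had 3.49 and 3.15 in medium and 4.23 and 4.20 with WGP (0.89 ± 0.148 SE, adjusted p = 0.0149). Psmd4, a ubiquitin receptor, had 5.68 and 5.79 in medium and 6.38 and 6.38 with WGP (0.64 ± 0.098 SE, adjusted p = 0.0125). Groups did not overlap in either gene, and the WGP arrays were nearly equal.

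The other non-ATPase rises were smaller. Psmd2, a scaffold and docking site for shuttle factors, and the lid subunit Psmd3 rose by 0.53 each, and the lid subunits Psmd6 and Psmd13 by 0.39 and 0.40. With normexp, quantile normalization or centring on the genes tested, 7 to 9 of the 10 non-ATPase calls were kept. The lowest change was that of Psmd8, a lid subunit, with 2.58 and 2.85 in medium and 3.13 and 3.07 with WGP (0.39 ± 0.134 SE, 95% interval 0.02 to 0.75, limma adjusted p = 0.0858). Its groups did not overlap, but it was not called. Without medium replicate 1, medium replicate 2, WGP replicate 1 or WGP replicate 2, 5, 6, 3 and 3 of the 10 calls were kept, and the 7 genes that lost theirs had a highest adjusted p of 0.0622 to 0.184. Within arrays, the mean of the 20S genes minus that of the 19S genes stood at 0.59 and 0.65 on the medium arrays and at 0.57 and 0.53 on the WGP arrays, a shift of -0.07. Of the core genes 11 of 14 rose with a median of 0.66 over the 14, and of the cap genes 16 of 17 with a median of 0.62 over the 17.

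**Figure D2:**
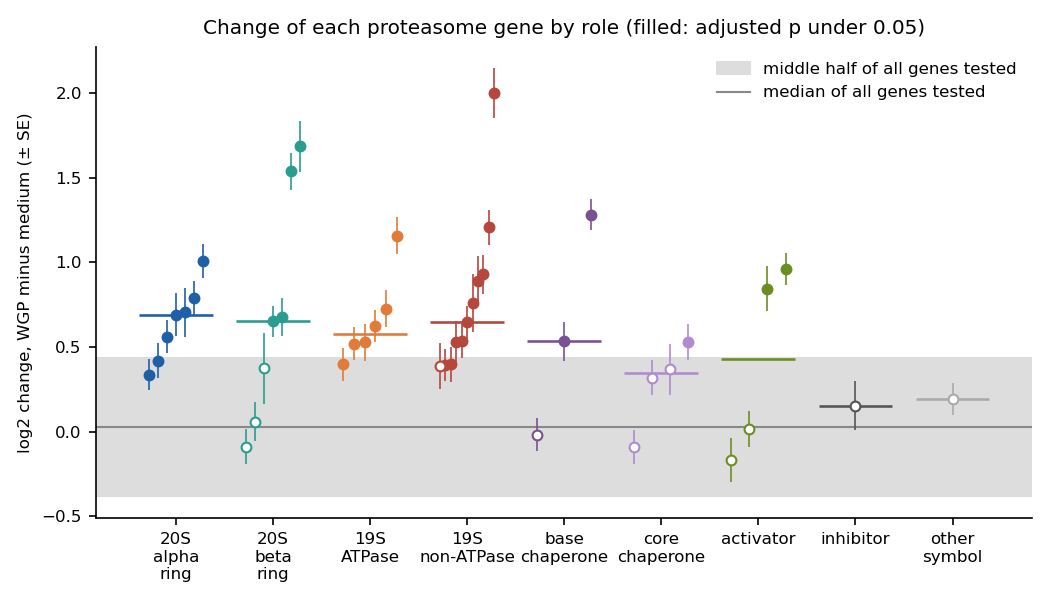
Log2 change with WGP (y axis) of each proteasome gene with its limma standard error, by role (x axis), with a horizontal bar at each role's median; filled points have an adjusted p under 0.05. The grey line and band are the median and the interquartile range over all genes tested; the medians of the rings and the cap lie at 0.57 to 0.69, and the activators spread from -0.17 to 0.96.

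Outside core and cap, 5 of 13 genes rose, with a median of 0.32, against 27 of 31 and a median of 0.64 within them. The difference between these classes was not tested. Over all genes tested, 23.2% were called higher. Of the chaperones that assemble the 19S base, Psmd10 (gankyrin, which also binds the retinoblastoma protein) rose from 1.49 and 1.48 to 2.77 and 2.77, a change of 1.28 ± 0.091 SE or 2.43-fold (limma adjusted p = 0.00275). Replicates of Psmd10 were nearly equal, its call held without any single array, and its second, dimmer probe gave 1.97. Psmd5 rose by 0.53 ± 0.115 SE (adjusted p = 0.0284), a call lost in all 4 fits without 1 array (adjusted p 0.0514 to 0.131). Psmd9, the remaining base chaperone, had -1.07 and -1.05 in medium and -1.12 and -1.04 with WGP (-0.02 ± 0.095 SE, 95% interval -0.28 to 0.24, adjusted p = 0.889), with overlapping groups.

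The core chaperones Psmg1 to Psmg4 guide the building of the alpha ring. Of the 4, 1 was called higher, near the 23.2% of all genes called higher. Psmg3 went from 1.71 and 1.57 to 2.13 and 2.21 (0.53 ± 0.106 SE, limma adjusted p = 0.0236), with a highest adjusted p of 0.116 without 1 array. Psmg4, its partner in a heterodimer, had 0.02 and -0.11 in medium and -0.13 and -0.14 with WGP (-0.09 ± 0.10 SE, adjusted p = 0.515). In Psmg3 the WGP arrays were both higher, and in Psmg4 both just under the lower medium array. Psmg1 and Psmg2, the other heterodimer, had changes of 0.32 ± 0.104 SE (adjusted p = 0.0745) and 0.37 ± 0.153 SE (adjusted p = 0.127) and were not called. In both of them the WGP arrays were above both medium arrays.

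The activators did not move as a block: 2 of 4 rose, beside 23.2% of all genes called higher. Psme1 and Psme2 encode the subunits of 1 heteromeric ring that opens the core without ATP and is inducible by interferon-gamma. Psme2 rose from 6.51 and 6.59 to 7.48 and 7.53, a change of 0.96 ± 0.096 SE or 1.95-fold (limma adjusted p = 0.00506), and its second probe gave 0.65. Psme1 had 4.98 and 4.99 in medium and 4.92 and 5.08 with WGP (0.02 ± 0.106 SE, 95% interval -0.27 to 0.30, adjusted p = 0.908). The groups of Psme2 were far apart and those of Psme1 overlapped. Within arrays, Psme2 minus Psme1 stood at 1.53 and 1.60 on the medium arrays and at 2.56 and 2.46 on the WGP arrays, a shift of 0.94 that does not depend on the scaling between arrays.

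Psme3, the subunit of the nuclear activator ring, rose from -0.88 and -1.10 to -0.05 and -0.23 (0.84 ± 0.133 SE, limma adjusted p = 0.0133), a call lost without WGP replicate 1 (adjusted p = 0.0611). Psme4, a large nuclear activator linked to histone degradation, had 0.26 and 0.01 in medium and 0.02 and -0.07 with WGP (-0.17 ± 0.129 SE, adjusted p = 0.355), and its second probe gave 0.05. The groups of Psme3 did not overlap and those of Psme4 did. The inhibitor Psmf1, which can block the core in vitro, had -0.98 and -1.25 in medium and -0.86 and -1.06 with WGP (0.15 ± 0.146 SE, adjusted p = 0.448). Psme3ip1 had -0.74 and -0.80 in medium and -0.54 and -0.61 with WGP (0.19 ± 0.096 SE, adjusted p = 0.179). The groups of Psmf1 overlapped and those of Psme3ip1 did not. Psmc3ip, a meiotic recombination factor that the symbol rule also takes in, was not well above background.

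Different probes of a gene mostly moved the same way. Of 11 members with several probes, 1 (Psme4) had probes of opposite sign, and 0 of the 8 called members did. The gap between a gene's probes had a median of 0.22 and was largest for Psmd10 at 0.68, followed by Psmb5 with 1.68 and 1.03. Many proteasome genes have processed pseudogenes, and whether probes also read these was not tested.

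Of genes that work with the proteasome under other symbols, 2 of 11 tested rose and 0 fell, with a median of 0.18, beside 23.2% called higher over all genes. Those that rose were Adrm1, a ubiquitin receptor of the cap (0.75 ± 0.097 SE, limma adjusted p = 0.00845), and Usp14, a deubiquitinase (0.73 ± 0.091 SE, adjusted p = 0.00795). Both calls were lost without WGP replicate 2 (adjusted p = 0.0525 and 0.0505). Pomp, which matures the core (0.41, adjusted p = 0.0923), and Sem1, the smallest cap subunit (0.18, adjusted p = 0.193), were not called. Akirin2, which carries proteasomes into the nucleus, had -0.34 (adjusted p = 0.0549), and Ube3c was not well above background.

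Among 12 tested genes that control proteasome gene transcription or its factors, 6 rose (50%) and 2 fell (16.7%), with a median of 0.57, beside 23.2% higher and 17.4% lower over all genes. Maff passed the filter on dim probes only through the WGP arrays, where it was high, so its place among the 6 carries no weight. Nfe2l2 rose from 3.07 and 3.00 to 4.19 and 4.20, 1.16 ± 0.095 SE or 2.23-fold (limma adjusted p = 0.00347). Nfe2l1 had 0.93 and 0.47 in medium and 0.94 and 0.78 with WGP (0.16 ± 0.191 SE, adjusted p = 0.528). The groups of Nfe2l2 were far apart and those of Nfe2l1 overlapped. The small Maf genes, whose products pair with both factors, were called higher: Mafg by 1.15, Mafk by 0.74, and Maff, which was not well above background in medium. The size of the rise of Maff is uncertain. Its mean with WGP was 11.9-fold over the lowest medium signals well above background, which is no firm lower bound. It depends on the background handling, since with normexp the change of Maff was 1.20 or 1.13 on the log2 scale. Vcp, the segregase, and Syvn1, a ubiquitin ligase of the endoplasmic reticulum, rose by 0.95 and 0.80. Ddi2, the protease that activates Nfe2l1 (-0.40 ± 0.095 SE, adjusted p = 0.0342), and Bach1, a repressor that competes for the same elements (-0.51 ± 0.128 SE, adjusted p = 0.0412), fell. Keap1 changed by -0.11 (adjusted p = 0.426) and was not called, but with normexp it was called lower (-0.27, adjusted p = 0.0452, and -0.25, adjusted p = 0.0338), and with median scaling its change was 0.06. Leaving out any 1 array ended the call of Ddi2 (adjusted p 0.0755 to 0.170). The call of Bach1 was lost without either WGP array and without medium replicate 1 (adjusted p 0.0906 to 0.151) and that of Mafk without either WGP array (0.0685 and 0.0760). With normexp background correction Mafk was not called either, at a change of 0.23 with the 75th percentile (adjusted p = 0.0591) and 0.16 with quantile normalization (0.104). Both falls were also lost with median scaling (adjusted p 0.242 for Ddi2 and 0.0993 for Bach1), while Nfe2l2 and Mafg were called in every setting tried. Maff was called wherever it was tested, which leaves out the setting that asks for signal above background on every array.

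Of 18 tested ubiquitin genes, activating enzymes, shuttles and segregase partners, 6 rose (33.3%) and 0 fell, with a median of 0.30, beside 23.2% higher over all genes and 33.1% among the brightest bin. Those that rose carry or extract substrates: Zfand5 (1.19 ± 0.10 SE, limma adjusted p = 0.00378), a proteasome-binding zinc finger protein, Ubqln1 (1.10 ± 0.109 SE, adjusted p = 0.00493) and Rad23b (0.68), shuttle factors, Ufd1 (1.02) and Nploc4 (0.78), cofactors of Vcp, and Zfand2a (0.63), an arsenite-inducible partner of the proteasome. The calls of Rad23b and Zfand2a were lost without either WGP array and without medium replicate 2 (adjusted p 0.0512 to 0.0863). The ubiquitin genes Ubb and Rps27a, with changes of -0.06 and 0.12, were not called. Ubqln2, a relative of Ubqln1, had 0.0053 ± 0.092 SE (adjusted p = 0.967). Counts over the 3 lists were 14 higher and 2 lower of 41 (34.1% and 4.88%), and leaving out 1 array gave 9 to 17 higher and 0 to 1 lower.

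**Figure D3:**
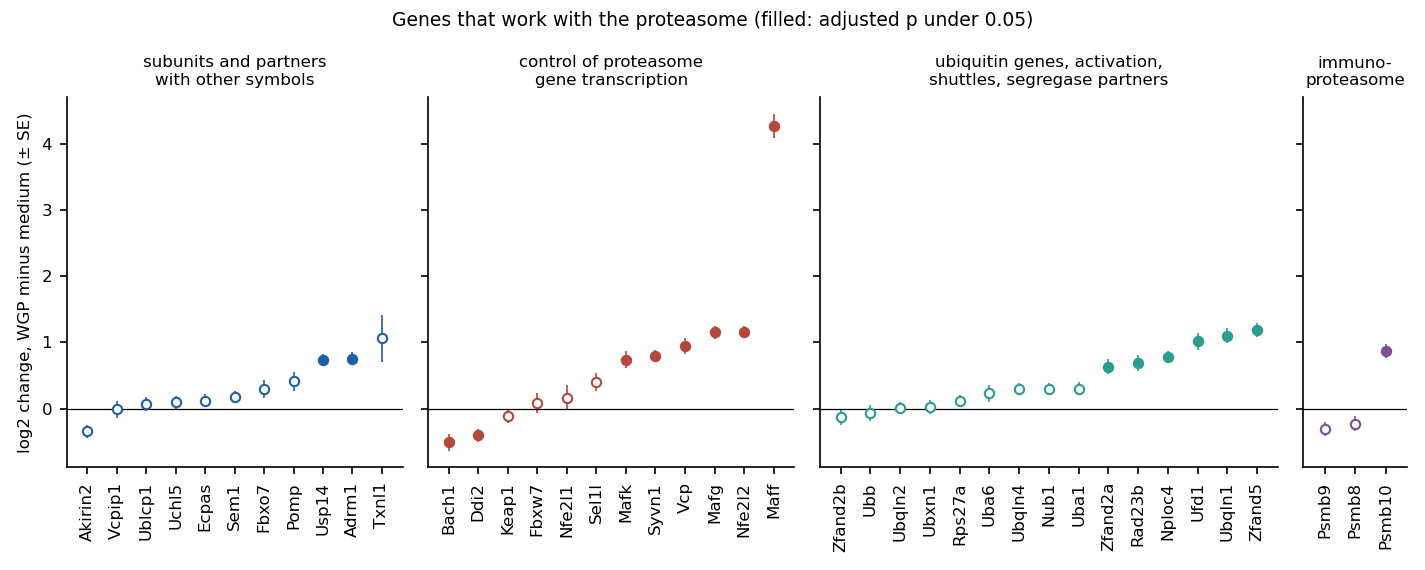
Log2 change with WGP (y axis) of genes of the other lists (x axis, 1 panel a list), with limma standard errors; filled points have an adjusted p under 0.05. Nfe2l2 stands at 1.16 and Nfe2l1 at 0.16, Psmb10 at 0.87 is the called immunoproteasome subunit, and the point of Maff rests on a medium signal not well above background.

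Whether the number of proteasome genes called or their median change moved more depended on the way of processing. With other background correction, scaling or centring, 26 to 32 were called, while the median ran from 0.34 to 0.70. With dim probes kept, 8 were called and the median stayed at 0.53. Leaving out 1 array lowered the number called, with medians of 0.55 to 0.60. Psmd1, Psmb5, Psmb6, Psmd10, Psmd11, Psmc5, Psma3 and Psme2 were called higher under all ways of processing tried. Psmd7 was called under all but the fit with no filter on dim probes (limma adjusted p = 0.0513). In each setting 0 proteasome genes were called lower.

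**Figure D4:**
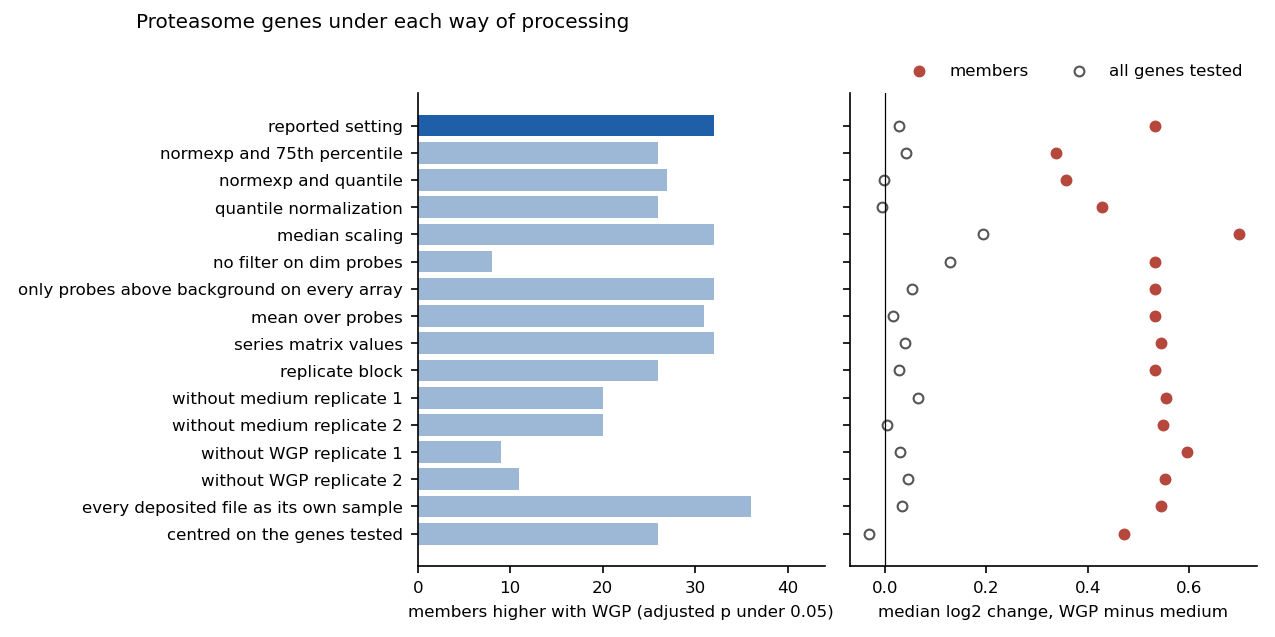
Left, the number of the 44 proteasome genes called higher with WGP (x axis, bars from 0) under each way of processing (y axis); right, the median log2 change of these genes (filled) and of all genes tested (open). The count is 32 as reported, 9 to 20 without 1 array and 8 with no filter on dim probes (of 47, against 4.41% of all genes), while the members' median lies between 0.34 and 0.70 and above that of all genes in each setting.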

How the data were processed

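Cy3-labelled RNA was hybridised to 1-colour Agilent arrays, and the submitters' processing notes name Agilent Feature Extraction 10.7.3. The authors deposited spot intensities whose processed signal was, per the file headers, background-subtracted and not normalized between arrays. The authors' deposited log2 table followed the same signals minus the 75th percentile, centred per probe (r = 1.00 over 39394 probes, largest difference 0.0107); its column medians were -0.0146, 0.164 and 0.102 for medium and 0.0997, 0.130 and 0.100 for WGP. The baseline of that centring is unknown, its scale was log2 and its direction that of the signals, and it served as an alternative.

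Left out were 1377 control spots and, on each array, 118 to 183 outlier spots; saturated spots numbered 0. Probes were named through RefSeq accessions (GRCm38.p6 table): 26761 of 39429 probes (67.9%) matched. Well above background on both arrays of a group were 18442 probes, named or not. Only the named ones among them were kept for testing, and the probe with the highest mean stood for a gene. Log2 signal, scaled to each array's 75th percentile, was fitted with limma 3.58.1 in R 4.3.3 (lmFit, eBayes, residual df 2) over all genes, WGP against medium, with no covariate; code was tested on simulated data. Every member may be named; per-array values are given for catalytic subunits, activators, inhibitor, each role's extremes and called changes of at least 1.5-fold; other genes come from listed pathways and markers, of which some are not reported here by name. Members and lists were chosen with earlier results of these data known. Replicate numbers coincide with slides in the headers; deviations from group means correlated at 0.14 within a slide (2 pairs). Alternatives were normexp on median signals (offset 50), quantile or median scaling, other probe filters, probe means, the slide block, leaving out arrays and, added after seeing the data, centring on the genes tested.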

Additional observations from a re-analysis of the deposited data

How the results depend on the processing

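With 2 arrays per group, single calls near the threshold were fragile. The changed genes numbered 4441, 2257 to 3274 when 1 array was left out, 1532 with dim probes kept and 7452 with every deposited file counted as its own sample, copies included. Members called higher numbered 32, 9 to 20 without 1 array (10.9% to 18.0% of all genes), 8 of 47 with dim probes kept (4.41%) and 20 at a minimum of 1.5-fold (16.8%); members called lower numbered 0 in every setting tried. Those 8 were Psma3, Psmb5, Psmb6, Psmc5, Psmd1, Psmd11, Psmd10 and Psme2, and they were called in all 15 alternatives. The members' median change was 0.53, 0.55 to 0.60 without 1 array, 0.34 with normexp and the 75th percentile, 0.36 with normexp and quantile normalization, 0.43 with quantile normalization, 0.70 with median scaling and 0.47 centred on the genes tested. Median scaling moved the all-gene median to 0.19 (0.028 as reported), and 72.7% of called changed genes were then higher (57.2% as reported); relative to the median of all genes, the members' median was 0.50 under both scalings and 0.30 with normexp. Other pathway genes called higher numbered 14, 9 to 17 without 1 array, 5 with dim probes kept and 26 with every file counted; those called lower numbered 2, 0 to 1 without 1 array, 4 with normexp and the 75th percentile, 0 with median scaling or dim probes kept, and 1 with probe means or the block. The catalytic difference within arrays was 0.98 to 1.20 without 1 array. The stricter promoter letters matched 0 members in place of 6. With the slide as a replicate block, 4090 genes changed and 26 members rose. With dim probes kept, 20274 genes were tested. The cause of the differences between settings was not tested. Members not well above background have no measured change.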
